A study of Mus musculus with 6 samples.

Results

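A group of 17 transcripts of genes that bind, splice, degrade, export, transcribe or translate RNA was examined in the striatum of HuD-KO mice and WT littermates. They are the entries, among 1088 that the authors listed as higher (298) or lower (790) in HuD-KO, whose gene symbol begins with a name used for RNA-binding, splicing, decay, ribosomal or translation genes. Transcripts of chromosome Y, symbols listed more than once and the part of chromosome 4 around Elavl4 were left out. The 17 were thus selected on the difference between HuD-KO and WT itself, so their differences are given as a description and carry no test. Listed higher were 6 of them (Mrps27, Celf1, Nxf3, Hnrnph1, Khdrbs3 and Eif5a2) and listed lower were 11, among them Hnrnph3, Ddx17, Hnrnpa1, Rps6kc1, Rbm45, Polr2m, Eef2, Rps6ka3, Sf3b2 and Upf3a. The name pattern also caught 2 transcripts of chromosome Y, Ddx3y and Eif2s3y, and none in the chromosome 4 stretch or under a repeated symbol.

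HuD is a neuronal RNA-binding protein of the Hu/ELAV family that recognises AU-rich stretches in messenger RNAs, and circular RNAs are also among its ligands. In the HuD-KO mice both alleles of its gene, Elavl4, are disrupted (written Elalvl4-/- in the labels), and the controls are wild-type littermates. All samples were adult striatum, with 3 mice per genotype and 1 array each. The sources used here give neither age nor sex, and name no Cre line or promoter that would limit the deletion to a cell type. RNA freed of ribosomal RNA was labelled with a single dye and hybridised to an array of long non-coding and messenger RNAs, on which each probe has 60 bases.

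The proteins of this group act at successive steps in the life of an RNA. Hnrn proteins (heterogeneous nuclear ribonucleoproteins) coat new transcripts and steer the choice of splice sites, Sf3b2 is a subunit of the spliceosome's SF3B complex, and Celf and Khdrbs proteins bind sequence elements that regulate splicing. Upf3a acts in nonsense-mediated decay, which removes transcripts with premature stop codons, while elongation and initiation factors serve the ribosome. Many neuronal transcripts are shaped by such factors in brain, and factors of this kind can share targets with Hu proteins.

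Each transcript was read by a single probe. Probes of transcripts that stood far apart between genotypes, or that have a defined place in splicing or translation, are shown because the values below rest on them. All are written 5′ to 3′ in lower case, as no stretch is singled out.
Hnrnph3: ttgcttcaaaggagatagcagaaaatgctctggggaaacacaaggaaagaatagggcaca
Ddx17: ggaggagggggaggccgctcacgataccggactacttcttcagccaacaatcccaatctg
Eef2: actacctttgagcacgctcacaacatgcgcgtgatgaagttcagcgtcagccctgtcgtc
Mrps27: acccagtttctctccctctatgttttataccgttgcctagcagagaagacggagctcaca
Khdrbs3: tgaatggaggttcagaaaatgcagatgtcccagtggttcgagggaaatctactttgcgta
Eif5a2: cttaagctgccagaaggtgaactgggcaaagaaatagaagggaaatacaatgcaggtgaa

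The GC content of the 17 probes ran from 35.0% to 58.3%, with a median of 45.0%, the same as over all listed probes. Any 2 of the 17 shared at most 10 consecutive bases on either strand (Hnrnph3 and Khdrbs3), so the related genes Hnrnph1 and Hnrnph3 were read by different sequence. A reading frame without a stop codon ran through 16 of the 17 probes, all but that of Celf1. This does not place a probe in coding sequence, as the Hnrnph1 probe, which lay upstream of the RefSeq start, had 2 such frames. The authors' annotation marks possible cross-hybridisation for the Hnrnpa1 probe (to uc007xxt.1).

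Across the 6 arrays, between 77.8% and 82.0% of target spots carried the scanner software's mark for a signal well above background. The lowest signal so marked was 14.7 to 18.8 units, against a 75th percentile of 446 to 615. Arrays of the same genotype correlated with r between 0.985 and 0.994 over tested probes, and arrays of different genotypes with r between 0.969 and 0.978, across probes that are not independent replicates. The probe for Elavl4 (NM_001163399, chromosome 4, 110203737 to 110286834) was well above background on 3 of 3 WT and 0 of 3 HuD-KO arrays. Its level in HuD-KO was lower by at least 15.5-fold, or by at least 4.85-fold after normexp background correction. All HuD-KO arrays and WT replicate 1 lay in row 1 of the slide, and WT replicates 2 and 3 in row 2. Levels below are log2 of the processed signal relative to the 75th percentile of the array, listed as HuD-KO replicates 1 to 3 and then WT replicates 1 to 3. Differences are HuD-KO minus WT on that log2 scale, with the standard error of the limma fit (SE, n = 3 per group). limma draws the spread of each probe towards that of all tested probes, so this SE is not the plain spread among the mice. Levels of different probes are not comparable with each other.

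Of the 17 probes, 16 passed the filter on dim probes (well above background on all arrays of at least 1 genotype) and 14 were well above background on all 6 arrays. With a difference over 2-fold and a limma p under 0.05 before adjustment, 4 of the 6 transcripts listed higher and 11 of the 11 listed lower were past the threshold, where 1.60% of all 47857 tested probes were higher and 4.33% lower. At a limma adjusted p under 0.05 the counts were 4 of 6 and 11 of 11, where 16.0% of all tested probes were higher and 14.4% lower. The 2 genotypes did not overlap in any of the 17, where 27.3% of all tested probes were higher without overlap and 22.5% lower. The 4 past 2-fold higher include Celf1, for which only a bound under 2-fold can be given. As the same contrast chose the transcripts, nothing is read from these counts. Among probes above background on every array, the median difference was 1.05 for the 3 listed higher and -1.15 for the 11 listed lower, beside 0.04 for all 44487 such probes. No median over the 6 listed higher is given, since Celf1 and Hnrnph1 have no measured difference. The median SD within a genotype was 0.16 for the 17 probes and 0.16 for all tested probes.

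**Figure D1:**
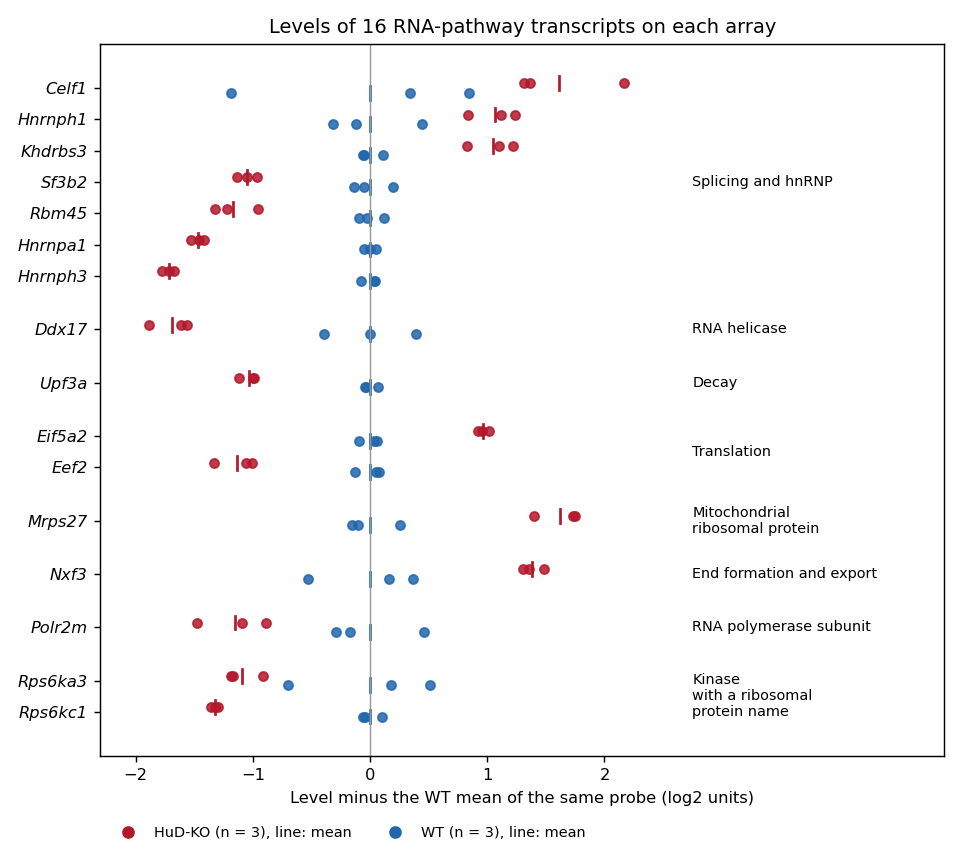
Level of 16 of the 17 transcripts on each array minus the WT mean of the same probe (x axis, log2 units), grouped by role, with HuD-KO in red, WT in blue, points for arrays and short lines for means. The genotypes do not overlap in any row, and the narrowest gap, 0.22 log2 units, is that of Rps6ka3.

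The splicing and hnRNP genes were the most numerous, with 3 of 7 listed higher and 4 of 7 lower. No median over the 7 is given, since Celf1 and Hnrnph1 have no measured difference. The largest fall was that of Hnrnph3 (NM_001079824, chromosome 10, 63014664 to 63023849, minus strand), an hnRNP of the H/F family. Its levels were 0.13, 0.20 and 0.24 in HuD-KO and 1.94, 1.83 and 1.96 in WT, a difference of -1.72 ± 0.08 (SE), or 3.29-fold lower. The spread among mice of a genotype was small beside the gap of 1.59 between the nearest mice of the 2 genotypes.

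Hnrnpa1 (NM_001039129, chromosome 15, 103240432 to 103244955, plus strand), among the most abundant hnRNPs of most cells and a repressor of many exons, was at 2.62, 2.73 and 2.68 in HuD-KO and at 4.14, 4.09 and 4.19 in WT. The difference was -1.47 ± 0.08 (SE), 2.76-fold lower, and again the arrays of each genotype lay close together. The RNA-binding protein Rbm45 (NM_153405, chromosome 2, 76369984 to 76383767, plus strand) was at -0.65, -0.38 and -0.75 against 0.54, 0.48 and 0.69, a difference of -1.16 ± 0.12 (SE). Sf3b2 (NM_030109, chromosome 19, 5273921 to 5295455, minus strand) was at 0.77, 0.69 and 0.61 against 1.68, 1.60 and 1.93, a difference of -1.05 ± 0.11 (SE). In each of the 4 genes every HuD-KO array was below every WT array.

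The other 3 genes of this role were listed higher, but only Khdrbs3 was read well above background in every mouse. Khdrbs3 (NM_010158, chromosome 15, 68928420 to 69093518, plus strand) encodes SLM2, a splicing regulator best known from neurons. Its levels were 3.76, 3.49 and 3.88 in HuD-KO and 2.60, 2.61 and 2.78 in WT, a difference of 1.05 ± 0.12 (SE), or 2.07-fold higher.

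Celf1 (NM_001244891, chromosome 2, 90940397 to 91019497, plus strand), a binder of GU-rich elements that acts in splicing and in mRNA decay, was well above background on 3 of 3 HuD-KO and 0 of 3 WT arrays. Its processed signals were 21.0, 22.3 and 43.7 in HuD-KO and 14.1, 9.32 and 3.11 in WT. Both sets lie next to the scanner's limit, so only a bound can be given: Celf1 was at least 1.43-fold higher in HuD-KO, and at least 1.08-fold after normexp correction. The WT arrays were also the most spread of the group, with levels of -5.14, -5.64 and -7.17 against -4.67, -4.62 and -3.82 in HuD-KO. The probe reads NM_001244891, 1 of several transcript models of this gene, and the level of the other Celf1 transcripts was not analysed here.

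Hnrnph1 (NM_021510, chromosome 11, 50377719 to 50386528, plus strand), the other H-family hnRNP, was well above background on 1 of 3 HuD-KO and 0 of 3 WT arrays and so was not tested. Its signals were 13.8, 18.5 and 19.2 in HuD-KO and 9.69, 6.13 and 5.14 in WT, all near the limit or under it, and no fold is given. This probe also lay apart from the gene body that RefSeq gives on GRCm38.p6. It matched the 300-base window around the RefSeq start (chromosome 11, 50377547 to 50377846, plus strand) from base -73 to base -14, upstream of that start, whereas the transcript of the authors' annotation starts further upstream and holds it. Of the 13 transcripts whose gene has such a window in the table used, this was the 1 probe found in it. The 2 H-family entries therefore differ in what was measured: a bright probe that was lower by 3.29-fold for Hnrnph3 and a probe at background for Hnrnph1.

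**Figure D2:**
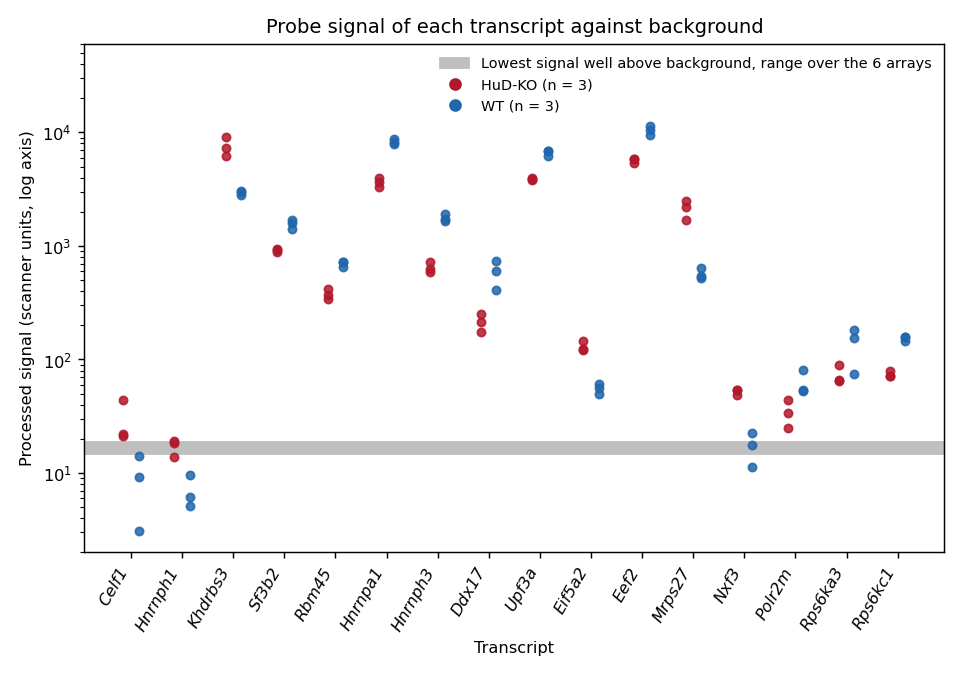
Processed signal of each probe on each array (y axis, scanner units, log scale) for HuD-KO (red) and WT (blue), n = 3 each, with the grey band marking the lowest signal well above background on the 6 arrays (14.7 to 18.8). The WT values of Celf1 and Nxf3 and all values of Hnrnph1 lie in or near the band or under it, and those of the other 13 probes drawn lie above it on every array.

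Among RNA helicases, Ddx17 (NM_001040187, chromosome 15, 79527696 to 79546741, minus strand), a DEAD-box protein that takes part in splicing and microRNA processing, was listed lower. It was at -1.62, -1.35 and -1.29 in HuD-KO and at 0.26, 0.66 and -0.13 in WT. The difference of -1.69 ± 0.21 (SE), 3.22-fold lower, was close in size to that of Hnrnph3, with WT arrays more spread.

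In nonsense-mediated decay, Upf3a (NM_025924, chromosome 8, 13785615 to 13798537, plus strand), a paralogue of Upf3b that binds the exon junction machinery, was listed lower, at 2.82, 2.83 and 2.70 in HuD-KO and 3.78, 3.89 and 3.79 in WT. Its difference of -1.04 ± 0.08 (SE), 2.05-fold, was the nearest to the 2-fold threshold among those listed lower.

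The translation factors moved in opposite directions. Eef2 (NM_007907, chromosome 10, 81176631 to 81182509, plus strand), the factor that moves the ribosome along the message, was at 3.45, 3.41 and 3.13 in HuD-KO and at 4.51, 4.34 and 4.54 in WT. With processed signals of 5403 to 5860 in HuD-KO and 9388 to 11316 in WT it was far from background, and its difference was -1.13 ± 0.12 (SE), or 2.19-fold lower. Eif5a2 (NM_177586, chromosome 3, 28781311 to 28798846, plus strand), a paralogue of the hypusine-bearing factor eIF5A, was at -2.13, -2.16 and -2.07 in HuD-KO and at -3.02, -3.05 and -3.17 in WT. Its difference of 0.96 ± 0.08 (SE) came to 1.95-fold, just under the 2-fold threshold under the scaling used here, although it is on the authors' list. The probe was dim, with signals from 49.5 to 147, and the difference became 0.48 after normexp correction.

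Mrps27 (NM_173757, chromosome 13, 99344786 to 99415561, plus strand), a protein of the small subunit of the mitochondrial ribosome, had the largest rise among probes above background on all arrays. Its levels were 1.67, 2.02 and 2.0 in HuD-KO and 0.12, 0.18 and 0.53 in WT, a difference of 1.62 ± 0.15 (SE), 3.08-fold higher. It was the only ribosomal protein among the 17, and no listed transcript of a cytosolic ribosomal protein met the rule.

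At the ends of the path lay an export gene and a polymerase-associated gene. Nxf3 (NM_001024141, chromosome X, 136072099 to 136085255, minus strand), a relative of the mRNA exporter Nxf1, was at -3.47, -3.34 and -3.52 in HuD-KO and at -4.46, -5.35 and -4.66 in WT. On WT arrays it was well above background in 2 of 3, so the fitted difference of 1.38 ± 0.23 (SE) includes a value at background. As a bound, Nxf3 was at least 2.25-fold higher in HuD-KO, or at least 1.22-fold after normexp correction. The fitted difference shrank to 0.29 after that correction. Polr2m (NM_001164793, chromosome 9, 71478437 to 71484958, minus strand), a subunit of a form of RNA polymerase II, was at -4.41, -4.02 and -3.82 in HuD-KO and at -3.22, -3.10 and -2.47 in WT, with a difference of -1.15 ± 0.25 (SE) that became -0.60 after the same correction. Both were dim, with signals from 11.3 to 80.5.

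The last 2 entries were caught by their names and are protein kinases, not ribosomal proteins. Rps6ka3 (NM_148945, chromosome X, 159256120 to 159363485, plus strand) encodes the kinase RSK2, which acts downstream of MAP kinases, and was at -3.04, -3.06 and -2.78 in HuD-KO and at -1.69, -1.36 and -2.57 in WT. WT replicate 3 lay far nearer to HuD-KO than the other WT mice, and its signal of 75.2 was under the 89.3 of HuD-KO replicate 3 before scaling. The difference was -1.09 ± 0.31 (SE), and it was -1.44 without WT replicate 3 and -0.83 without WT replicate 2. Rps6kc1 (NM_178775, chromosome 1, 190772879 to 190911770, minus strand), a kinase-like protein with a lipid-binding PX domain, was at -2.90, -2.92 and -2.96 against -1.64, -1.66 and -1.50, a difference of -1.32 ± 0.08 (SE). After normexp correction the difference of Rps6kc1 was -0.90.

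How far these differences depended on the place of an array or a probe was then measured. Within row 1 of the slide the only control is WT replicate 1, and the direction there is fixed because the genotypes do not overlap. The differences in that row were 1.78 for Mrps27, 1.11 for Khdrbs3 and 0.90 for Eif5a2, and ran from -1.75 to -0.86 for the 11 listed lower. With the row as a block in limma, 0 of the 6 listed higher and 3 of the 11 listed lower had an adjusted p under 0.05. Over all tested probes, 139 higher and 144 lower did. Past 2-fold with p under 0.05 before adjustment the counts were 3 and 8, beside 764 and 1978 over all tested probes. The probes of Hnrnpa1, Rbm45 and Sf3b2 lay in a corner, set by position alone, that was treated as dim. The dimness, taken to lie on the array of HuD-KO replicate 2, is not shown here. For none of these probes was the level on that array the lowest in HuD-KO. Without that array their differences were -1.49, -1.27 and -1.05. After normexp, 2 transcripts higher and 5 lower were past 2-fold, beside 323 higher and 1057 lower over all tested probes. Upf3a (-0.98) and Sf3b2 (-0.99), which are bright but were near the threshold, dropped just under it, while Hnrnph3 (-1.61), Ddx17 (-1.46), Hnrnpa1 (-1.44), Mrps27 (1.55), Eef2 (-1.11), Rbm45 (-1.05) and Khdrbs3 (1.04) stayed there.

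**Figure D3:**
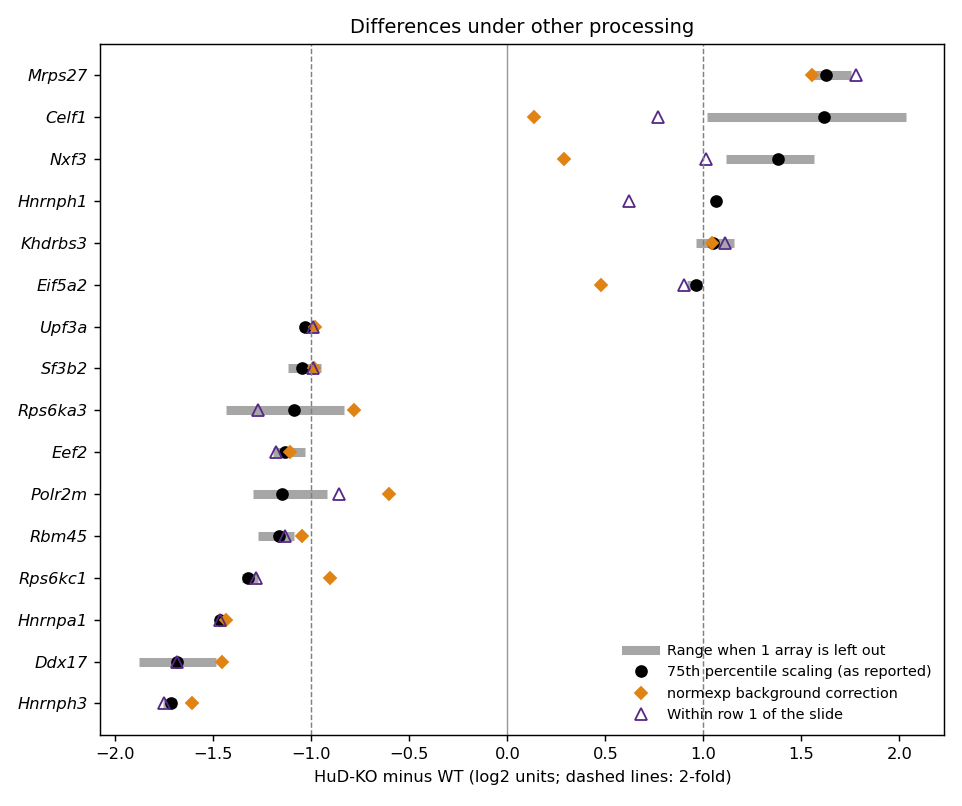
Difference between HuD-KO and WT (x axis, log2 units) as reported (black), after normexp background correction (orange), within row 1 of the slide (triangles) and over the 6 fits that leave out 1 array (grey bars); dashed lines mark 2-fold, and Hnrnph1 was not tested, so it has no bar or orange point. Celf1, Nxf3, Eif5a2, Polr2m and Rps6kc1 shift most under normexp and Khdrbs3 and Eef2 shift least. Celf1 and Hnrnph1 were not well above background on any WT array.

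The 2 transcripts of chromosome Y that the rule left out moved far more. Ddx3y (chromosome Y, 1260715 to 1286613), a DEAD-box helicase, was well above background on 3 of 3 HuD-KO and 0 of 3 WT arrays and was at least 9.74-fold higher. The translation factor gene Eif2s3y (chromosome Y, 1010612 to 1028598) was at 0.01, 0.18 and 0.22 in HuD-KO and at -3.38, -3.57 and -3.48 in WT. Summed over the 4 of 5 sex chromosome markers that the lists name (Ddx3y, Eif2s3y, Kdm5d and Uty), the level was 2.86 to 2.98 in HuD-KO and -2.15 to -1.96 in WT. In WT, Ddx3y and Kdm5d were not well above background. Eif2s3y (signals of 39.0 to 47.6) and Uty (53.8 to 69.8) were dim but well above background on 3 of 3 WT arrays. The 4 transcripts separated the same mice as the genotype, as they would if the HuD-KO mice were male and the WT mice female. The sources used here do not give sex, and the lists do not name Xist, the other marker. Any part of sex in the differences of the 17, of which Nxf3 and Rps6ka3 are X-linked, cannot be told apart from that of HuD.

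Some markers of cell types that a striatal dissection could hold also differed between the same arrays. The lists name 1 of 5 oligodendrocyte markers (Mbp, lower), 1 of 5 astrocyte markers (Fgfr3, lower), 3 of 7 of choroid plexus and ependyma (Ccdc153, F5 and Kcnj13, all lower) and 1 of 4 of hypothalamic neurons (Oxt, higher). Among markers of cortical excitatory neurons, Neurod6 (1.69) and Nrgn (1.87) were higher and Camk2a (-1.48) was lower. The summed level of the listed markers of this type overlapped between genotypes, at 6.38 to 6.56 in HuD-KO and 6.41 to 6.52 in WT. None of the 5 microglial, 3 endothelial or 10 striatal projection neuron markers is named by the lists, so the tissue label could not be checked on its defining markers. The summed level ran from 0.10 to 1.94 in HuD-KO and from 3.54 to 4.11 in WT for choroid plexus and ependyma, and from 3.49 to 3.84 and from 4.54 to 5.14 for Mbp. For Oxt it ran from 2.06 to 3.84 in HuD-KO and from -1.17 to 0.51 in WT. Fgfr3 was well above background on 0 of 3 HuD-KO and 3 of 3 WT arrays and was lower by at least 2.73-fold, or 1.69-fold after normexp. Their part in the differences of the 17 was not tested. In whole tissue, fewer cells that express a gene cannot be told apart from less RNA per cell.

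A pair of RNA-pathway probes could be tested without the lists, since the array's housekeeping probes are named by their accession. Rpl13a, a protein of the large cytosolic ribosomal subunit read in 20 spots per array, was at 3.94, 3.98 and 3.88 in HuD-KO and at 3.95, 3.91 and 4.02 in WT. The genotypes overlapped, and the difference was -0.03 (95% confidence interval -0.22 to 0.16, limma adjusted p 0.804, exact permutation p 0.5), which spans changes of less than 2-fold either way. Nono, a paraspeckle protein that binds RNA, also had 20 spots and was at 2.99, 2.90 and 2.96 in HuD-KO and at 3.18, 3.02 and 3.35 in WT. All HuD-KO arrays were lower, but the difference of -0.24 (95% confidence interval -0.49 to 0.02) did not pass the test (limma adjusted p 0.139, exact permutation p 0.1, the smallest that 3 against 3 can give).

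Of 103 other genes of RNA pathways whose symbols fall outside the name pattern, the lists name 7, and the remaining ones, apart from Nono, were not analysed here. Besides Elavl4, lower were Syncrip (-2.04), an hnRNP-like protein of RNA granules, Taf15 (-2.03), an RNA-binding protein of the FET family, Mov10 (-2.02), a helicase linked to small RNA silencing, and Puf60 (-1.38), a splicing factor of the U2 snRNP. Higher were Lin28a (1.0), a binder of let-7 precursors, and Elavl2 (1.05, 1.16 and 1.81 for 3 probes), another neuronal Hu protein. After normexp correction the 3 Elavl2 probes gave 0.42, 0.57 and 1.45. Under the same correction Syncrip was at -1.39, Taf15 at -1.79, Mov10 at -1.81, Puf60 at -1.03 and Lin28a at 0.91. The third Elavl2 probe and that of Puf60 lay in the corner treated as dim. The lowest coordinate of Elavl2 is 91250767 on chromosome 4, in the stretch around Elavl4 that the rule leaves out. In all 7 genes the 2 genotypes did not overlap, where 27.3% of all tested probes were higher without overlap and 22.5% lower. The lists were themselves selected on this contrast, so nothing is read from this or from the 7 of 103.

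**Figure D4:**
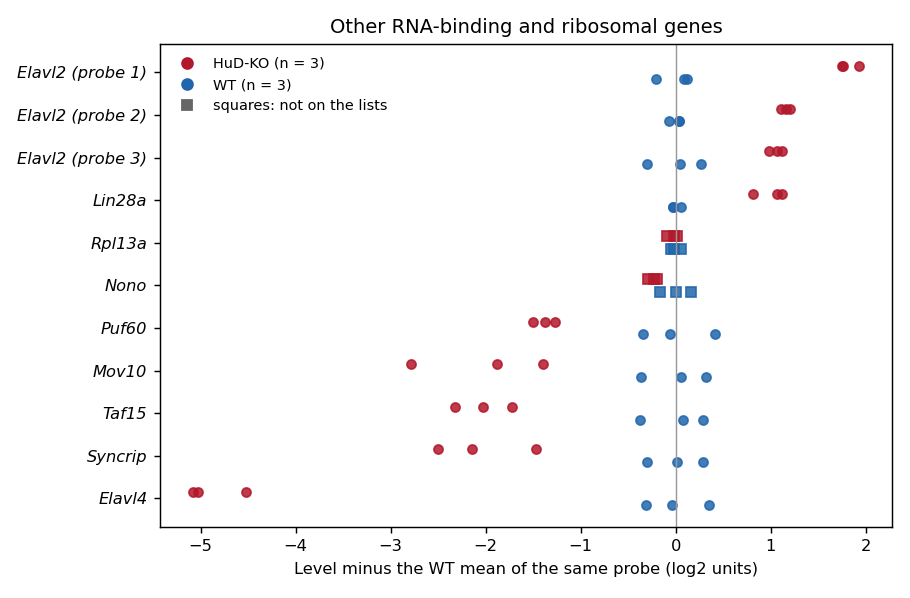
Level on each array minus the WT mean of the same probe (x axis, log2 units) for the RNA-pathway genes outside the group of 17, HuD-KO in red and WT in blue, n = 3 each; circles are genes named by the lists and squares the housekeeping probes Rpl13a and Nono. Rpl13a and Nono stay within 0.3 log2 units of the WT mean, and Elavl4 is lowest in HuD-KO.

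The authors' lists also carry Gene Ontology terms, whose tally was chosen after the values were seen. Of all 1088 listed rows 72.6% were lower, and the counts below are close to that share or rest on few rows, so nothing particular to RNA genes is read from them. RNA binding was given to 30 listed rows, 11 higher and 19 lower, and 7 of them belong to the 17 (4 higher and 3 lower). RNA splicing was given to 13 rows, 3 higher and 10 lower, of which 3 belong to the 17. The 9 rows of the spliceosomal complex that were lower include Snrnp35, Snrnp48, Syncrip and Cactin beside members of the group. The term translation was given to 5 rows, 2 higher and 3 lower.

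The study identified genes whose RNAs bind HuD, which is a readout apart from these arrays. Celf1 is on its list of genes for which both the circular and the messenger RNA bind HuD, and Khdrbs3 is a host gene of a circular RNA that binds it. For Rps6ka3, which was listed lower, the paper predicts from sequence motifs that a circular RNA binds HuD. The 17 lie on 11 chromosomes, and their transcripts run from 1402 to 7849 bases in the authors' annotation.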

How the data were processed

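Striatal RNA of 3 HuD-KO and 3 WT mice was measured on 1-colour arrays. The deposited scanner files hold spot intensity (processed signal, median signal and local background), which the scanner software had corrected for background and spatial trend without scaling between arrays. The authors also deposited lists of transcripts higher or lower in HuD-KO, from which names, coordinates (no build named), RNA lengths and probe sequences were taken. Their p-values, FDR, fold and log2 columns were not used. The deposited files also hold marks and lengths (other values).

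Of 62939 spots, 60915 target probes were read, 65 with outlier marks left out. log2 of the processed signal minus each array's 75th percentile was compared for 47857 probes with limma 3.58.1 in R 4.3.3 (lmFit, eBayes, two-sided, Benjamini-Hochberg), with simulated data as a check. Where the lower genotype was not well above background on all 3 of its arrays, a bound was computed from the lowest signal well above background. limma is the tool named in the submitters' processing notes. Tables used scipy 1.17.1, numpy 2.4.6 and pandas 2.3.3 in Python 3.11.15.

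The transcripts of the group were named, with 1 of them and 1 marker gene not reported here. The members and all gene and marker lists were chosen with earlier results of these data known. Housekeeping probes were named through RefSeq on GRCm38.p6. Alternatives covered the scaling, normexp with an offset of 50, the filter on dim probes, the methods' t-test, blocks for replicate number and slide row, the dim corner, a floor of 5 and leaving out each array. With 3 arrays per genotype, the number of arrays limits the precision. The replicate numbers did not pair the samples, since deviations of same-numbered arrays correlated with r of -0.03, -0.06 and -0.13.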

Additional observations from a re-analysis of the deposited data

How the results depend on the processing

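All 250 differences recomputed for 16 single transcripts of the group under 16 alternatives kept their direction. Most of these outcomes were fixed in advance, so the count is no support for the directions. As the genotypes do not overlap, neither leaving out 1 array nor blocking on the slide row could reverse a sign. Changing only the test, the filter or the replicate block returns the same difference. Of the 250, 8 moved by more than the SD within a genotype, 6 of them under normexp and the other 2 in the model with the slide row. After normexp, 2 transcripts of the group were past 2-fold higher and 5 lower, with 323 and 1057 of all tested probes. The medians were then 0.48 and -0.99, with Elavl4 at -2.28. Before normexp the medians were 1.38 and -1.15 over the tested ones, with Celf1 and Nxf3 included at their fitted values. When limma took the slide row as a block, 0 higher and 3 lower had an adjusted p under 0.05, with 139 and 144 of all tested probes, and the median of those higher was 1.01. The filter on all 6 arrays left 2 higher past 2-fold, with a median of 1.05, and Elavl4 could not be computed under it. Without the dim corner, 7 lower remained at both thresholds, since it removes 4 of the probes. The replicate number as a block passed an adjusted p of 0.05 for 2995 higher and 3533 lower probes (7651 and 6888 without it), and for 4 and 9 of the group. The replicate numbers did not pair the samples.

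Fits without 1 of the arrays had 2 to 4 transcripts higher past 2-fold (2 without HuD-KO replicate 3), 8 to 10 lower past 2-fold, 4 higher and 8 to 11 lower by adjusted p, and medians of 1.1 to 1.55 and of -1.27 to -1.14. Over all probes, adjusted p values passed for 3439 to 7039 higher and 3607 to 6579 lower. The calls that were higher and those that were lower fell to 3439 and 3856 without HuD-KO replicate 1, 4376 and 4578 without replicate 2, 3923 and 4070 without replicate 3, and 3459 and 3607 without WT replicate 1. Elavl4 ran from -5.05 to -4.70. The difference of Rpl13a, which was not called, ran from -0.0528 to 0.00104 and changed sign without HuD-KO replicate 3 (0.00017) and without WT replicate 3 (0.00104). Other scalings moved the median of all tested probes by less than 0.1. The cause of these shifts was not tested. Signal over background limits Celf1, Hnrnph1, Nxf3 and Polr2m, and the dim probes of Eif5a2 and Rps6kc1 also gave smaller differences after normexp.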
